A study of Sus scrofa with 3 samples.

Results

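The genes described here load and build the MCM helicase, hold the DNA polymerases on their template and supply the deoxynucleotides that S phase consumes. The set was defined by symbol as MCM2, MCM3, MCM4, MCM5, MCM6, MCM7, CDC6, PCNA, TYMS and RRM2, which is 10 genes. Of these, 7 had an entry under their own symbol among the 34579 features of the liver tables, namely MCM2, MCM3, MCM4, CDC6, PCNA, TYMS and RRM2. MCM5, MCM6 and MCM7 had none. MCM5 was found under the entry LOC100624915, whose number is its NCBI gene ID in the RefSeq gene table, and its values are given apart from the 7. The set was proposed from these same libraries, with its high level in the castrated pool already known, so the ratios between libraries are a description without a test.

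The data were 3 RNA-Seq libraries of liver from Chinese Wuzhishan miniature pigs aged 6 to 7 months when obtained, all fed the same high-fat, high-cholesterol (HFC) feed from the week after surgery. The groups were intact males after a sham operation (IM), surgically castrated males (CM), and castrated males given weekly intramuscular testosterone propionate from the day of castration (CMT). According to the sample labels each library was 1 pool of RNA from 3 pigs, while the methods describe larger groups and do not give the number pooled, so the variation between pigs is unknown and a pool mean can be carried by 1 pig. The reads recovered from the deposited values numbered 28479241 for IM, 32631189 for CM and 23641214 for CMT. These totals leave out features whose reads could not be recovered, ALB among them, and are not full library depths.

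Replication licensing takes place in G1. The origin recognition complex, CDC6 and CDT1 load the MCM2-7 ring, a hexamer of 6 different subunits, onto DNA as an inactive double hexamer, which is converted to the active helicase when S phase begins. PCNA is the sliding clamp of the replicative polymerases, while thymidylate synthase (TYMS) and the small subunit of ribonucleotide reductase (RRM2) make deoxythymidine monophosphate and deoxyribonucleotides. Transcription of these genes is under the control of E2F factors, and in quiescent tissue such as adult liver most of them are kept at a low level until cells re-enter the cycle.

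Every one of the 7 genes had its highest value in CM, and the IM and CMT values lay within 1.5-fold of each other except for MCM3. The unit was FPKM, fragments per kilobase of exon scaled by a divisor for each library, which allows levels of different genes to be compared per length. The divisors were 2.51 (IM), 3.42 (CM) and 2.04 (CMT) reads per FPKM and kilobase. Division by library size, as in usual FPKM, would take far larger divisors, so the values here exceed usual FPKM. The divisors were also not in proportion to the recovered reads. The levels and the minimum given next hold on this scale only. All 7 genes passed a minimum of 1 FPKM, applied to each of the 3 libraries. All 7 were at least 1.5-fold higher in CM than in IM, beside 11.1% of the 15613 mRNA features that passed the same minimum. None lay within 1.5-fold, where 76.8% of those features did. All 7 were likewise at least 1.5-fold lower in CMT than in CM, beside 13.5% of features, and none lay within 1.5-fold, beside 74.3%. In the third comparison, 6 of the 7 genes lay within 1.5-fold between CMT and IM, against 83.2% of features. CM was at least 1.5-fold above both other libraries for 6.87% of features and for all 7 genes. Over all features 11.1% were higher and 12.1% lower in the CM pool relative to IM, a split that became 20.7% and 6.87% when libraries were scaled to equal FPKM sums. For CMT relative to CM the split of 12.1% higher and 13.5% lower became 6.73% and 22.9%. The set was chosen for this pattern, so nothing is read from these shares.

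**Figure D1:**
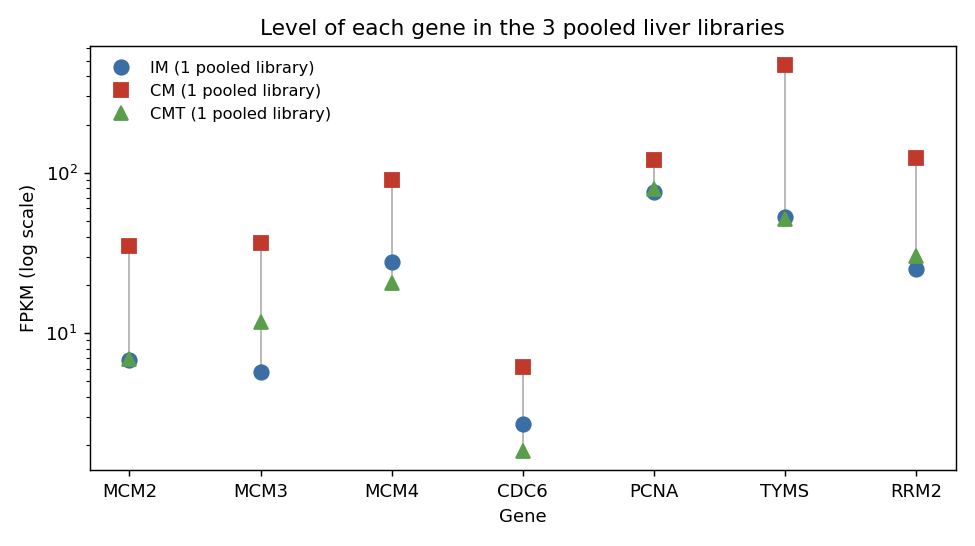
FPKM on a log scale of the 7 genes in the IM (circles), CM (squares) and CMT (triangles) libraries, 1 pool per group, with a grey line joining the lowest and highest value of a gene. The CM square is the highest point for each gene, from 6.13 for CDC6 to 470.4 for TYMS.

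Among the helicase subunits, MCM2 had an FPKM of 6.79 in IM and 6.91 in CMT against 35.0 in CM. These values stood for 58, 48 and 408 recovered reads. IM and CMT were nearly equal, and CM stood apart from both. The CM to IM ratio of MCM2 was 5.16, with a 95% exact binomial interval of 3.91 to 6.92, and the CM to CMT ratio was 5.07 (3.75 to 6.99). These intervals, here and for the other genes, are computed from the recovered reads and cover counting error only, not the differences between pigs.

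MCM3 was at 5.71 in IM and 11.7 in CMT against 36.3 in CM. It is the subunit that contacts CDC6 when the ring is loaded, and the gene of the set in which CMT stayed furthest above IM. Its CM to IM ratio was 6.36 (2.73 to 18.1) and its CMT to CM ratio was 0.322 (0.146 to 0.641). The CMT to IM ratio was 2.05 (0.675 to 6.87), which could not be told from 1 at this depth. The recovered reads were 6 in IM, 10 in CMT and 52 in CM on a recovered length of 419 bases, and both may be too low by a common factor, in which case the intervals are too wide.

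MCM4, part of the catalytic core of the helicase with MCM6 and MCM7, had the highest level of the 3 MCM genes in each library. Its FPKM was 27.9 in IM and 20.4 in CMT against 90.7 in CM, from 158, 94 and 700 reads. The CM value was 3.25 times that of IM (2.73 to 3.89) and 4.44 times that of CMT (3.58 to 5.57). MCM4 was the gene of the set whose CMT to IM interval lay wholly under 1, at 0.732 (0.561 to 0.951). With both mates of a pair taken as 1 read, that interval ran from 0.499 to 1.06.

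MCM5, under its LOC entry, followed the same order, with an FPKM of 7.80 in IM and 12.2 in CMT against 30.7 in CM from 22, 28 and 118 reads. Its CM to IM ratio was 3.94 (2.48 to 6.52), and its CM to CMT ratio was 2.51 (1.65 to 3.94). CMT was 1.57 times IM, with an interval of 0.864 to 2.87. MCM6 and MCM7 were not analysed here.

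The subunits of the ring are present once each in the hexamer, but MCM4 stood above MCM2 and MCM3 in FPKM in every library. No interval was computed for ratios between genes, and MCM3 rested on 6 reads in IM and 10 in CMT. MCM4 exceeded MCM2 4.11-fold in IM, 2.95-fold in CMT and 2.59-fold in CM. MCM3 and MCM2 were closer, with MCM3 at 0.841 times MCM2 in IM, 1.69 times in CMT and 1.04 times in CM. The MCM2 and MCM3 intervals of the CM to IM ratio overlapped widely. Those of MCM2 and MCM4 nearly met, and with both mates of a pair taken as 1 read they overlapped, at 3.49 to 7.90 for MCM2 and 2.54 to 4.21 for MCM4.

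CDC6, the ATPase that brings the MCM ring to the origin recognition complex, was the lowest gene of the set in every library. It had an FPKM of 2.68 in IM and 1.84 in CMT against 6.13 in CM, from 18, 10 and 56 reads. CM was 2.28 times IM (1.32 to 4.13) and 3.34 times CMT (1.69 to 7.34). The IM and CMT values could not be told apart at this depth, with a CMT to IM ratio of 0.684 (0.282 to 1.56).

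PCNA, which also serves in DNA repair, was the gene that differed least between the libraries. Its FPKM was 75.5 in IM and 78.8 in CMT against 120.3 in CM, from 205, 174 and 445 reads. CM exceeded IM 1.59-fold (1.35 to 1.89) and CMT 1.53-fold (1.28 to 1.83), so PCNA passed the 1.5-fold criterion narrowly in both comparisons. Its CM to IM interval lay below that of each of the other genes except CDC6, whose interval it overlapped.

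TYMS, the enzyme that methylates deoxyuridine monophosphate, showed the widest gap. It was at 52.8 in IM and 51.3 in CMT against 470.4 in CM, from 67, 53 and 814 reads. IM and CMT differed by less than counting error, with a CMT to IM ratio of 0.973 (0.666 to 1.42). CM was 8.92 times IM (6.94 to 11.6) and 9.16 times CMT (6.93 to 12.3). By the CM to IM ratio TYMS ranked 17th from the highest among the 15613 features, followed within the set by MCM3 at rank 37, MCM2 at 63 and RRM2 at 73. PCNA was at rank 1469.

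RRM2, the S-phase subunit of ribonucleotide reductase, had an FPKM of 25.1 in IM and 30.1 in CMT against 124.3 in CM, from 40, 39 and 270 reads. The CM to IM ratio was 4.95 (3.54 to 7.09) and the CM to CMT ratio 4.13 (2.94 to 5.94). The RRM2 and TYMS intervals of the CM to IM ratio overlapped between 6.94 and 7.09.

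**Figure D2:**
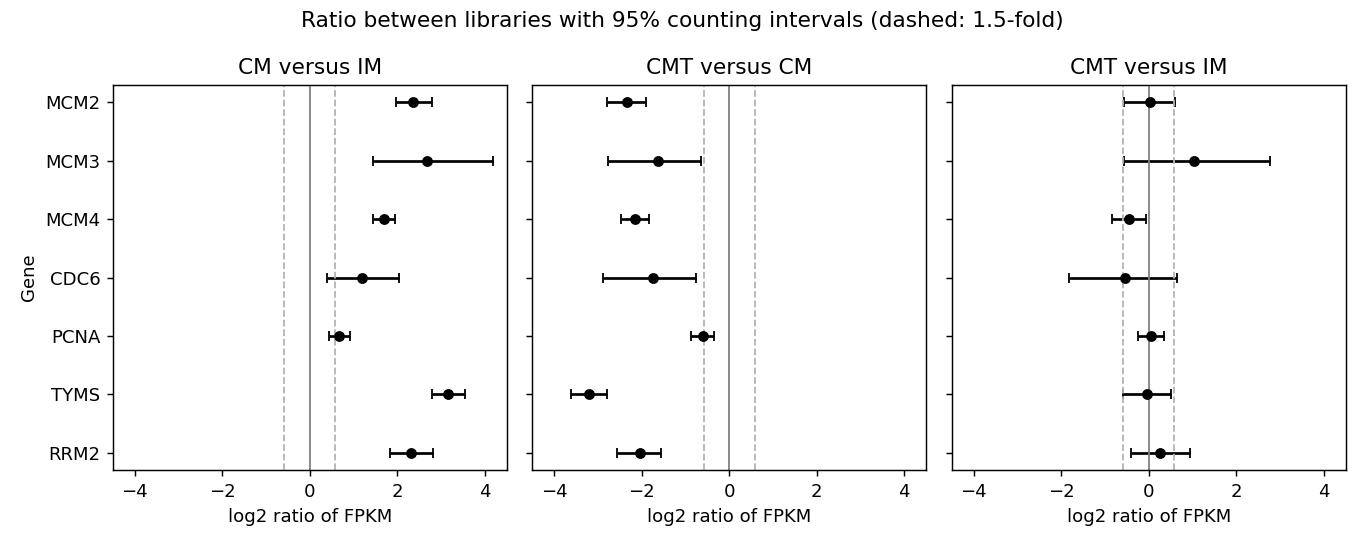
Log2 ratios of FPKM for the 7 genes in each pair of libraries, 1 panel per pair, with bars for the 95% exact binomial intervals from recovered reads and dashed lines at 1.5-fold. All intervals exclude 0 in the CM versus IM and CMT versus CM panels, whereas in the CMT versus IM panel only the MCM4 interval does.

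The log2 ratios of CM to IM had a median of 2.31 over the 7 genes, with a range of 0.67 to 3.16, and those of CMT to CM a median of -2.05, with a range of -3.20 to -0.61. Over all 15613 features the medians were -0.020 and 0.013. For CMT versus IM the median of the 7 genes was 0.03, ranging from -0.55 to 1.04, beside -0.007 over all features. The comparisons share libraries, and CM enters the first and the second, so their values are not independent of each other. By size, 6 of the 7 genes were at least 2-fold higher in CM than in IM, a difference found in 4.61% of features. At least 3-fold was reached by 5 genes and 1.63% of features, and at least 5-fold by 3 genes and 0.448% of features.

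The order of the levels within the set changed in CM. PCNA led in IM and CMT, with TYMS second. In CM, TYMS led and RRM2 (124.3) and PCNA (120.3) stood nearly level. TYMS was 0.699 times PCNA in IM and 0.651 times in CMT, but 3.91 times in CM. The 7 genes together had a summed FPKM of 196 in IM and 201 in CMT against 883 in CM, of which TYMS held 26.9% in IM, 25.5% in CMT and 53.3% in CM. The share of PCNA was 38.4% in IM, 39.2% in CMT and 13.6% in CM.

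**Figure D3:**
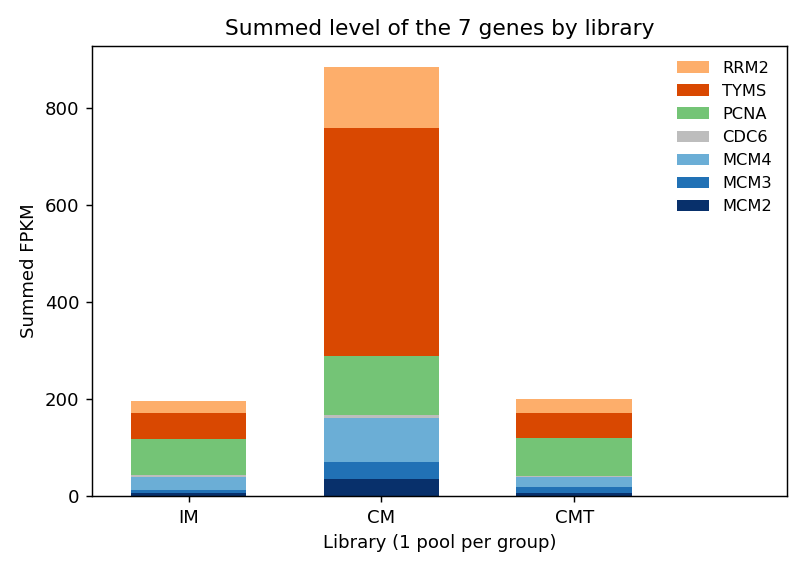
Summed FPKM of the 7 genes in each library as stacked bars from 0, 1 pool per group. The bar reaches 883 in CM against 196 in IM and 201 in CMT, and TYMS is the largest part of the CM bar.

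Beyond the set, 123 further genes of replication and the cell cycle were grouped into 6 lists by their known roles. The lists were chosen with earlier results of these data known. Their counts are therefore a description without a test, and nothing is read from the shares beside them. The tables held 113 of them, 11 under a LOC entry matched by NCBI gene ID, and 109 were mRNA features that passed the FPKM minimum of 1. Of the 109 genes, 51 exceeded IM in the CM pool by 1.5-fold or more and 4 fell short of it by as much, where the shares over all features were 11.1% and 12.1%. Between CMT and CM, 44 were lower and 1 was higher in CMT (13.5% and 12.1% over all features). Between CMT and IM, 9 were higher and 13 lower (6.67% and 10.1% over all features).

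**Figure D4:**
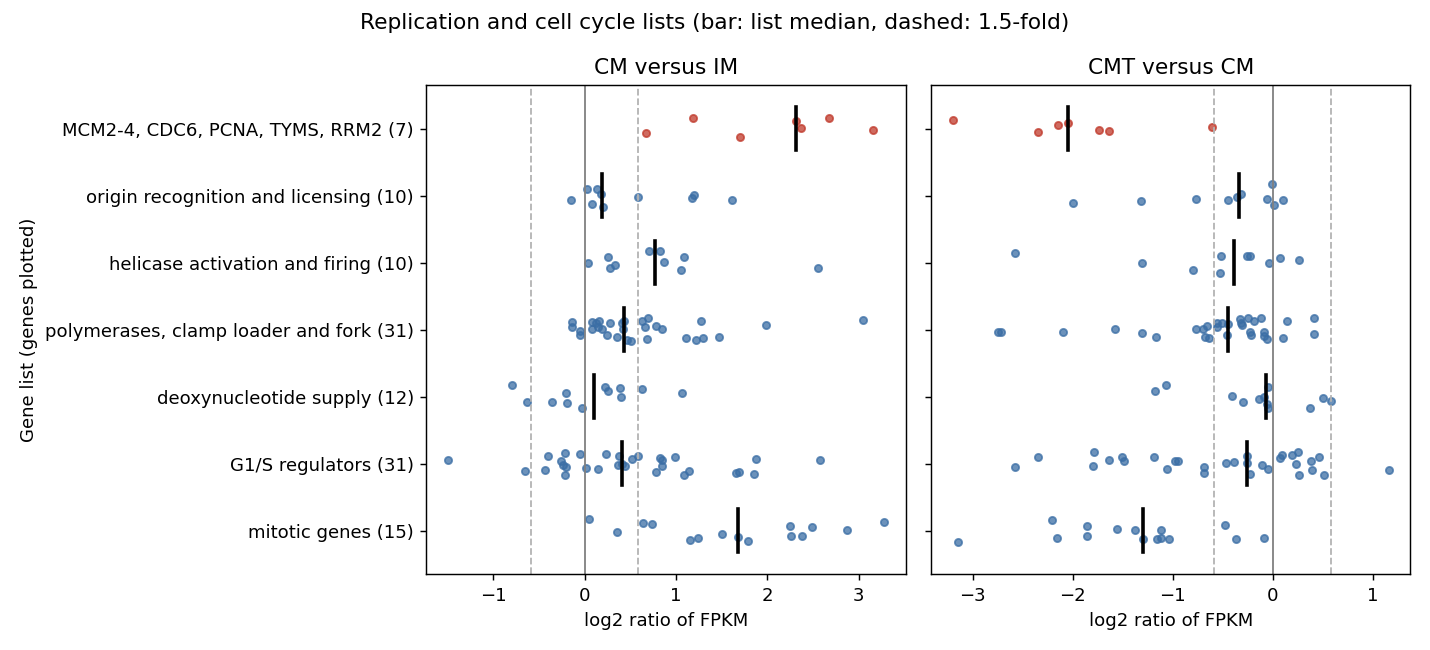
Log2 ratios of FPKM for CM versus IM and CMT versus CM, 1 point per gene, for the 7 genes (top row) and the 6 lists, with the number of genes plotted in brackets, a black bar at each list median and dashed lines at 1.5-fold. The list medians for CM versus IM run from 0.10 for deoxynucleotide supply to 1.68 for mitotic genes. The 7 genes, at 2.31, were chosen for their high level in CM.

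Of the origin recognition and licensing genes, 4 of 10 were at least 1.5-fold higher in CM than in IM and none was lower, with a median log2 ratio of 0.19. CDT1, the partner of CDC6 in loading MCM, had an FPKM of 3.84 in IM and 4.73 in CMT against 11.8 in CM, a CM to IM ratio of 3.07 (1.57 to 6.57). In the order IM, CM and CMT, which also holds for the triplets of FPKM below, ORC6 was at 15.6, 35.9 and 8.96, and ORC1, under a LOC entry, at 3.49, 7.88 and 4.63. Their CM to IM ratios were 2.30 and 2.26. MCM8, a relative of the MCM2-7 subunits that acts in recombination, was at 30.3 in IM and 20.2 in CMT against 27.5 in CM, so its highest value was not in CM. At least 1.5-fold lower in CMT than in CM were 3 of the 10 genes.

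For helicase activation and origin firing, 6 of 10 genes were at least 1.5-fold higher in CM than in IM, none was lower, and the median log2 ratio was 0.77. MCM10, needed to start the loaded helicase, was at 2.56 in IM and 2.52 in CMT against 15.1 in CM. Its CM to IM ratio was 5.87 (2.32 to 19.1) from 5 and 40 reads. RECQL4 was at 4.24, 9.02 and 3.65, and WDHD1, which couples the helicase to polymerase alpha, had a CM to IM ratio of 1.82 (1.15 to 2.96). GINS4, a subunit of the GINS part of the helicase, was at 33.0 in IM and 47.3 in CMT against 39.3 in CM. In CMT versus CM, 3 of the 10 genes were at least 1.5-fold lower and none was higher.

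The polymerase, clamp loader and fork list had 13 of 31 genes at least 1.5-fold higher in CM than in IM and none lower, with a median log2 ratio of 0.43. POLE, the catalytic subunit of the leading-strand polymerase, was at 1.37 in IM and 1.68 in CMT against 11.3 in CM, but rested on 4 reads in IM, 4 in CMT and 45 in CM, with a CM to IM interval of 3.01 to 31.6. KIAA0101, the PCNA-associated factor, was at 3.78, 14.9 and 3.48. A second entry for that factor, LOC100514810, matched to the RefSeq symbol PCLAF and looked up after the first was seen, was at 8.40 in IM and 7.30 in CMT against 63.3 in CM. Reads of near-identical copies may be split between the 2 entries, so their levels are uncertain. DNA2 was at 1.66, 4.06 and 1.36 from 6, 20 and 4 reads, and its CM to IM interval of 0.948 to 7.44 included 1. RPA3, a subunit of the single-strand binding protein, was at 92.5, 98.0 and 131. At least 1.5-fold lower in CMT than in CM were 11 of the 31 genes.

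Of the other genes of deoxynucleotide supply, 2 of 12 were at least 1.5-fold higher in CM than in IM and 2 were lower, with a median log2 ratio of 0.10. RRM1, the large subunit that pairs with RRM2 and was picked out after its values were seen, was at 268 in IM and 284 in CMT against 314 in CM, a CM to IM ratio of 1.17 (1.06 to 1.29), which does not reach the RRM2 interval of 3.54 to 7.09. RRM2B, the small subunit used outside S phase, was at 30.7, 40.5 and 30.6. DCK, a deoxynucleoside salvage kinase, was at 6.76, 14.2 and 6.77, with no reads recovered and so no interval. DCTPP1 was at 25.4, 33.4 and 14.8, and its CM to IM interval of 0.728 to 2.44 included 1. SAMHD1, which breaks down deoxynucleotides, was lower in CM, at 463 in IM and 399 in CMT against 267 in CM, with a CM to IM ratio of 0.576 (0.549 to 0.604). In CMT versus CM, 2 of the 12 genes were at least 1.5-fold lower.

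Among G1/S regulators, 13 of 31 genes were at least 1.5-fold higher in CM than in IM and 2 were lower, with a median log2 ratio of 0.41. UHRF1, which keeps DNA methylation through replication, was at 3.99 in IM and 4.66 in CMT against 23.7 in CM, a CM to IM ratio of 5.94 (4.27 to 8.48). E2F8, a repressor of the E2F family that is itself a target of E2F, was at 1.76, 6.45 and 1.08. Cyclin E1 (CCNE1) was at 3.97, 14.3 and 4.13. MYC went the other way between IM and CM, at 504 in IM and 256 in CMT against 179 in CM. In CMT versus CM, 13 of the 31 genes were at least 1.5-fold lower and 1 was higher.

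Of the mitotic genes, 13 of 15 were at least 1.5-fold higher in CM than in IM and none was lower, with a median log2 ratio of 1.68 that came nearest to the 7 genes. CDK1, the kinase of mitotic entry, was at 3.64 in IM and 9.71 in CMT against 35.2 in CM. KIF20A was at 3.87, 18.5 and 2.08 and CENPE, a kinesin of the kinetochore, at 1.38, 6.54 and 1.47. Aurora kinase B (AURKB) was at 24.6 in IM and 19.7 in CMT against 25.4 in CM. MKI67, the other gene within 1.5-fold between CM and IM and picked out after its values were seen, was at 194, 248 and 234. For CMT versus CM, 12 of the 15 genes were at least 1.5-fold lower, and the median was -1.30.

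Of 12000 mRNA features outside the lists with an FPKM of 10 or more in every library, 5 lay nearest to the 7 genes. Likeness was the distance from the medians of the 7 genes, at log2 ratios of 2.31 over IM and 2.05 over CMT, which compares 3 libraries only. The nearest was UBD, at 15.5 in IM and 18.0 in CMT against 68.5 in CM and a distance of 0.21. PHLDA3 followed at 0.37, STMN1 at 0.48, C5H12orf39 at 0.49 and DDX60 at 0.52. STMN1 was at 61.1 in IM and 60.1 in CMT against 222 in CM.

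In whole liver, a change in the number of cells of a type cannot be told apart from a change in RNA per cell. Cell division itself was not measured. The liver markers were present, and ALB, encoding albumin, had the highest FPKM of all features in each library. Summed over 10 hepatocyte markers, the FPKM was 1053319 in IM and 832726 in CMT against 783481 in CM. ALB made up most of this sum, at 690375 in IM and 445509 in CMT against 476360 in CM. The median log2 ratio of the 10 markers between CM and IM was -0.40. Of them, 1 was at least 1.5-fold higher and 1 lower (11.1% and 12.1% over all features). The higher one was CYP2E1, at 3148 in IM and 54.4 in CMT against 14546 in CM. In CMT versus CM, 3 of the 10 were at least 1.5-fold higher and 1, CYP2E1, was lower (12.1% and 13.5% over all features). Between CM and IM, the lists of macrophage and Kupffer cell, endothelial, and stellate cell markers had median log2 ratios of -0.10, -0.23 and 0.01. For T and NK cell markers the median was 0.42 for CM versus IM, with 1 of 12 at least 1.5-fold higher and 1 lower. The shares over all features were 11.1% and 12.1%. For CMT versus CM the median of these T and NK cell markers was -0.74. Of the 12, 7 were at least 1.5-fold lower and 1 higher (13.5% and 12.1% over all features). Their summed FPKM was 1106 in IM and 1048 in CMT against 1141 in CM. The largest part of that sum was CD247, which ran opposite to most of the list, at 450.0 in IM and 513 in CMT against 296 in CM. For B and plasma cell markers the median log2 ratio between CM and IM was 0.27.

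Cholangiocyte, erythroid and neutrophil markers also differed between the libraries. Of 4 cholangiocyte markers, 3 were at least 1.5-fold higher in CM than in IM (11.1% over all features), at a median log2 ratio of 0.76. In CM, 2 of the 4 were at least 1.5-fold above both other libraries (6.87% over all features). The sum over all 5 listed was 93.8 in IM and 106 in CMT against 167 in CM. The sums of erythroid and neutrophil markers were highest in IM. HBB, encoding beta globin, made up most of the erythroid sum, at 17158 in IM and 5151 in CMT against 3399.7 in CM. Of the 3 erythroid markers that passed the minimum, HBB and ALAS2 were lower in the CM pool, at 0.198 and 0.209 times their IM values. The third, TFRC, the transferrin receptor, which other cell types also express, was higher, at 144 in IM and 349 in CMT against 421 in CM, a CM to IM ratio of 2.93 (2.72 to 3.16). The summed FPKM of 8 erythroid markers was 17388 in IM and 5537 in CMT against 3838 in CM, with KLF1 listed at 0 in each. The summed FPKM of 6 neutrophil markers was 165 in IM and 54.7 in CMT against 81.4 in CM. The part of these cell types in the levels of the 7 genes was not tested.

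**Figure D5:**
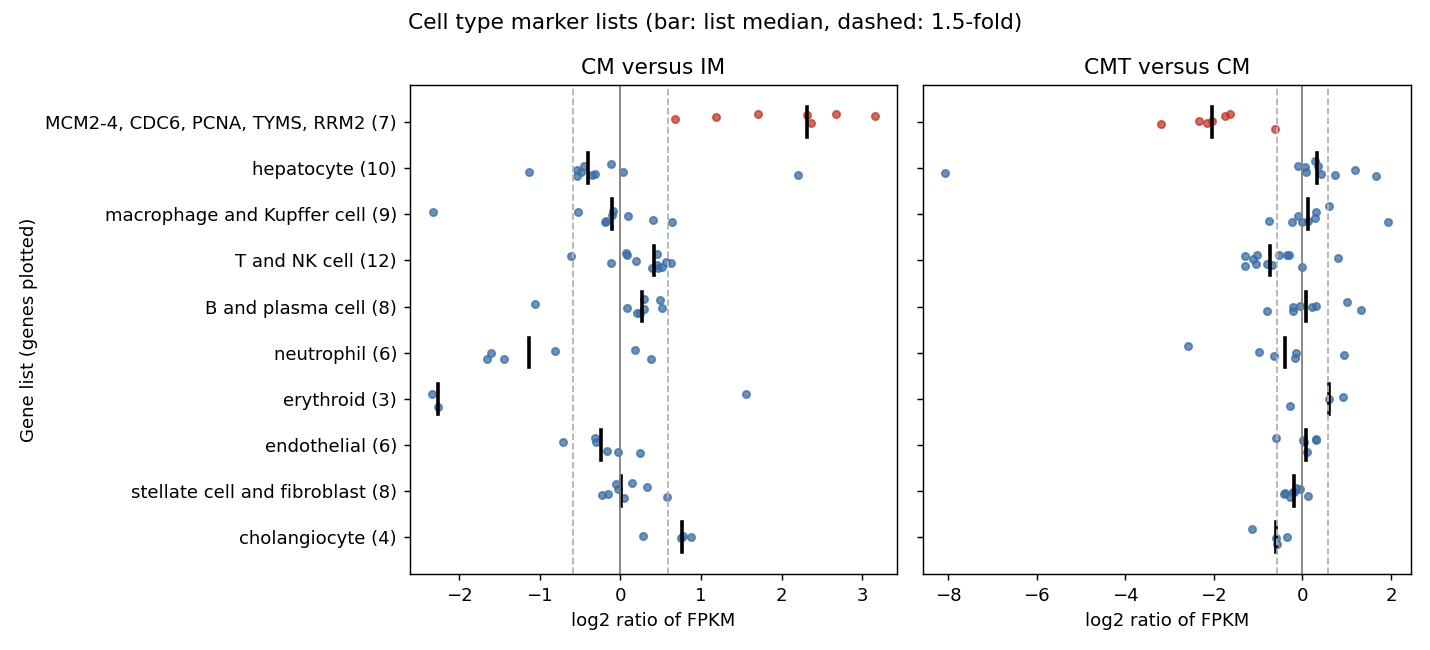
Log2 ratios of FPKM for CM versus IM and CMT versus CM, 1 point per marker gene that passed the FPKM minimum, by cell type list, beside the 7 replication genes (top row), with a black bar at each median and dashed lines at 1.5-fold. Among the cell type lists, the cholangiocyte median of 0.76 is the highest for CM versus IM. The T and NK cell median of -0.74 is the lowest for CMT versus CM. The 7 genes were chosen for their high level in CM, so their row is no yardstick for the lists.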

How the data were processed

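Liver RNA was pooled in equal amounts within each group by the authors, poly-A selected and sequenced as paired-end reads on an Illumina HiSeq instrument. Per the labels and the study's methods the reads were checked with FastQC and mapped with TopHat to Sscrofa10.2. The counting program and annotation are not given in the sources used here. The deposited values are FPKM, 1 table per library, used without rescaling. No coordinates or sequences are given, since the gene table at hand is of another build and holds no sequence.

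Within a gene the values are whole multiples of a step. This gave divisors of 2.51 (IM), 3.42 (CM) and 2.04 (CMT) reads per FPKM and kilobase, and reads for 23563 of 24277 features above 0, taken as whole within a relative tolerance of 2e-09. The smallest fitting length was taken, up to 20000 bases and 1000000 reads, so a common factor can be lost. For 36.1% of 15438 features with at least 10 reads in each library all 3 read numbers were even, as were those of 4 of the 7 genes, so mates may have been counted separately and intervals can be too narrow. On a recovered length of 1 kb, 3 reads are 1.20 FPKM in IM, 1.47 in CMT and 0.877 in CM. The recovery was tested on simulated data.

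Ratios are of FPKM, for features at 1 FPKM or more in every library. The 1.5-fold threshold is that of the study's methods, which paired it with a test on reads not used here. Intervals are 95% exact (Clopper-Pearson) binomial. With 1 library per group no p-value was computed. Members and lists were chosen with earlier results of these data known. Named from each list were the 3 genes with the largest and the 1 with the lowest value of the smaller log2 ratio (CM to IM, CM to CMT). Alternatives were other minimums, a pseudocount, scalings, thresholds and member lists. Python 3.11.15, numpy 2.4.6, pandas 2.3.3, scipy 1.17.1 and matplotlib 3.10.9 were used.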

Additional observations from a re-analysis of the deposited data

How the results depend on the processing

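For the 7 genes, every log2 ratio past 1.5-fold kept its direction under the 4 scalings and a pseudocount of 1. Scaling by the column sum shifted CM versus IM by 0.26 and CMT versus CM by -0.25 for all features. Scaling by the recovered reads, which leave out ALB, shifted them by 0.25 and -0.28. The share of features at least 1.5-fold higher in CM than in IM was then 20.7% and 20.4%, with 6.87% and 6.95% lower. The log2 ratio of PCNA became 0.93 and 0.92 for CM versus IM and, by recovered reads, -0.89 for CMT versus CM.

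A minimum FPKM of 10 removed MCM2, MCM3 and CDC6 by construction. This left 4 of 4 genes at least 1.5-fold apart between CM and IM, 4 of 4 between CMT and CM and 0 between CMT and IM. The share over all features at that minimum was not computed. The genes were chosen for their high level in CM, so nothing is read from these counts. In CMT versus IM the main count of 1, MCM3, fell to 0 when the interval, also from halved reads, had to exclude 1, and became 2 with MCM5 added. The halved reads and the addition of MCM5 were chosen after seeing the data.

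The list counts here take genes apart in either direction together, unlike those given by direction above. Brackets hold the count at 1.5-fold. At a threshold of 2-fold, the counts for CM versus IM were 3 for helicase activation (6) and 7 for polymerases and fork (13). They were 1 for deoxynucleotide supply (4) and 8 for G1/S regulators (15), with 6 for polymerases and fork between CMT and CM (11). Between CMT and IM they were 0 for origin recognition (2), helicase activation (2) and deoxynucleotide supply (1). G1/S regulators had 2 (10) and mitotic genes 3 (6). Scaling by the column sum gave 5 for origin recognition and 5 for helicase activation in CMT versus CM, where each was 3 before. The same scaling took polymerases and fork from 13 to 19 in CM versus IM and from 11 to 16 in CMT versus CM. It took G1/S regulators from 15 to 19 and from 14 to 16. In CMT versus IM, scaling by the median ratio or the column sum gave 1 for origin recognition and 2 for deoxynucleotide supply. The cause of these changes of counts was not tested. Of 219 alternative values, 194 stayed within their limits. The limit for a count was a factor of 1.5 from the main count. For a log2 ratio it was the counting interval, and for the median of the 7 genes the medians of their interval ends. Some alternatives, such as no minimum FPKM, could not change the values of the 7 genes. The tally is therefore no measure of robustness. No paired analysis was possible because each group has 1 library.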
